A study of Mus musculus with 11 samples.

Results

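The macrophages described here were grown from bone marrow and left unstimulated, and their baseline profile was read from 4 untreated arrays of a series of 11. The other arrays of the series hold the same kind of cells after LPS, a bacterial cell wall component, alone (3 arrays) or with prostaglandin E (4 arrays), and they enter no comparison of levels. Bone marrow of wild-type C57Bl/6 mice was cultured for 1 week in medium with 5 ng/ml mCSF (macrophage colony-stimulating factor), and the adherent cells were used 24 hours after they had been moved to fresh plates. RNA of each sample (250 ng) was measured on Affymetrix mouse gene 1.1 ST arrays, which carry probes along the whole transcript. The labels state neither the number and sex of the mice nor whether a replicate is a separate mouse or a separate culture, so the spread between arrays may be partly technical.

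All 18755 genes that had a probe set with exactly 1 gene symbol were described, each by the probe set with the highest mean over all arrays of the series. Levels are the authors' normalized log2 signals, so a step of 1 is a 2-fold change of signal, and they are given as mean ± SD of the 4 untreated arrays. Probes of different genes bind with different strength. The place of a gene among all genes is therefore the rank of its signal and not a measure of transcript number, and no fold between genes is given. A rank percentile of 100 marks the gene with the highest mean signal and 50 the median gene. In RNA from a whole culture, fewer cells of a type and less RNA per cell cannot be told apart.

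A floor was set on each array at the 95th percentile of 1126 olfactory and vomeronasal receptor genes, odour and pheromone receptors that serve neurons of the nose. It lay between 4.08 and 4.21 on the 4 arrays, and the median gene lay between 5.89 and 5.98. Of the 18755 genes, 12068 (64.3%) were above the floor on every array, 5194 (27.7%) were at or below it on every array, and 1493 (7.96%) were above it on some arrays only. The ranks of 4516 genes (24.1%) were within the top 25% on every array, and those of 1771 genes (9.44%) within the top 10%. These shares are the background against which each list below is read. Arrays correlated across genes at 0.9968 to 0.9974, though the genes of an array are not independent of each other. Over the 4 arrays the SD had a median of 0.107, with 0.0513 among genes of the top 10% and 0.138 among genes at or below the floor. In the Y-linked genes 1 array stood apart: Eif2s3y was at 7.25, 8.64 and 7.92 in untreated replicates 1 to 3 and at 3.35, below the floor, in replicate 4.

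**Figure D1:**
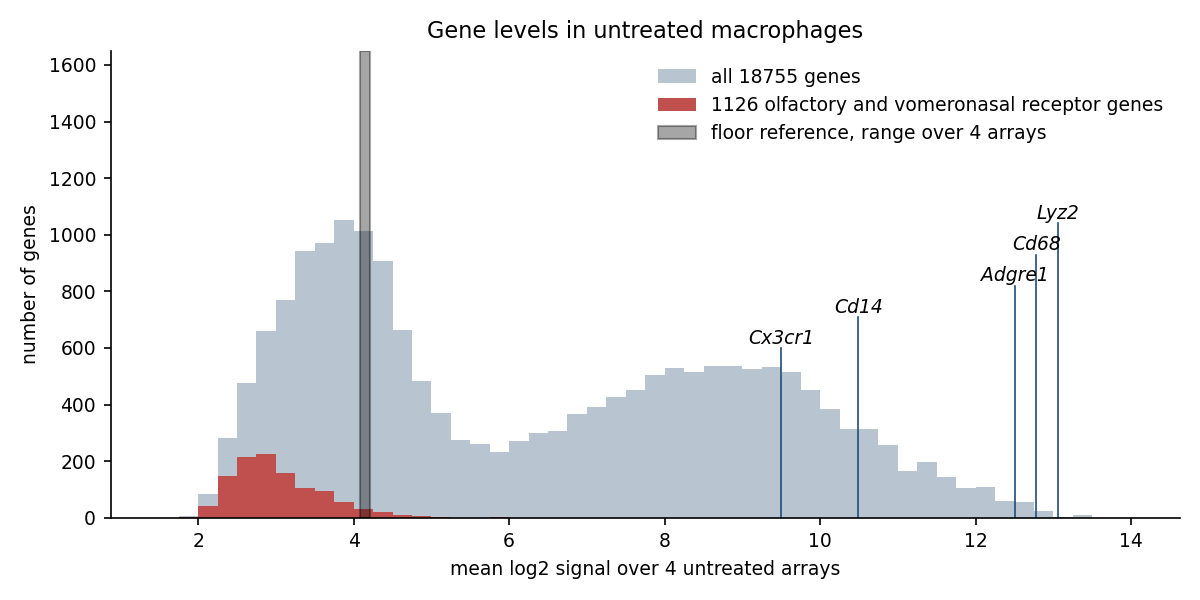
Number of genes (vertical axis) by mean log2 signal over the 4 untreated arrays (horizontal axis), for all 18755 genes (grey) and the 1126 olfactory and vomeronasal receptor genes (red), with the range of the floor (4.08 to 4.21) as a dark band. The genes form a low and a high mode on either side of a trough near 6, the receptor genes lie almost wholly in the low mode, and Lyz2, Cd68 and Adgre1 sit above 12, at the far end of the high mode.

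Macrophages are long-lived phagocytes. They depend on the receptor for colony-stimulating factor 1, engulf particles and dying cells, and digest them in lysosomes acidified by a proton pump. The transcription factor PU.1 (Spi1) and partners such as Irf8 and C/EBP proteins are known to set up their gene programme, while factors of the MiT/TFE family (Mitf, Tfeb, Tfe3, Tfec) are known to drive lysosomal genes. Resting cells carry the sensors for microbes but hold most inflammatory cytokine genes down until a stimulus arrives.

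The markers named for this cell type were near the top of the array. Csf1r, the receptor for the growth factor in the medium, was at 12.53, 12.54, 12.55 and 12.55 on the 4 arrays (99.5th percentile). Cd68, a membrane protein of endosomes and lysosomes, was at 12.77, 12.78, 12.77 and 12.80 (99.8th percentile). Adgre1, which encodes F4/80, was at 12.46, 12.51, 12.54 and 12.52 (99.5th percentile), and Lyz2, lysozyme, at 13.02, 13.08, 13.10 and 13.03 (99.9th percentile). The 4 arrays spanned at most 0.0805, in Lyz2. All 13 measured macrophage markers lay in the top 25% on every array, and 9 of them in the top 10%, against 24.1% and 9.44% of all genes. The lowest of the 13 were Cx3cr1, the fractalkine receptor, at 9.49 ± 0.24, Mrc1, the mannose receptor, at 9.56 ± 0.11, and Fcgr1, the high-affinity IgG receptor, at 9.69 ± 0.18. The remaining markers lay between them and Adgre1. These were Ms4a7 at 11.77 ± 0.095, the complement receptor subunit Itgam at 11.76 ± 0.056, the scavenger receptor Msr1 at 11.08 ± 0.052, Mertk, a receptor for dying cells, at 10.79 ± 0.056, Cd14, the LPS co-receptor, at 10.49 ± 0.071, and C1qa at 10.09 ± 0.076.

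Predicted and small RNA genes were left out of the 20 genes with the highest signal, which removed Rn7sk, a small nuclear RNA gene, at rank 11 (13.20 ± 0.019). The share of all genes in the classes named below was not counted. Some of these 20 genes encode proteins of the endosome and lysosome or of lipid and iron handling. These were Apoe (13.33 ± 0.031), a lipoprotein component, Ctsd (13.30 ± 0.027), the aspartic protease cathepsin D, Gpnmb (13.29 ± 0.020), Laptm5 (13.29 ± 0.029), Psap (13.28 ± 0.020), the precursor of the saposins, Fth1 (13.40 ± 0.018), the ferritin heavy chain, Lyz2 and Grn (12.92 ± 0.030), progranulin. C3ar1, the receptor for complement fragment C3a, was at 12.91 ± 0.025 and Cyba, a membrane subunit of the phagocyte oxidase, at 12.89 ± 0.031. Among the others, Actb, Eef1a1, Eef2, Gapdh, Rps6, Arpc1b, Txn1, Akr1a1 and Fxyd5 lay between 12.91 and 13.42. The highest gene of the array was Rn28s1, a ribosomal RNA gene, at 13.57 ± 0.086.

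Transcription factors and other regulators known from the macrophage lineage were mostly in the upper part of the range. Of 38 listed, 3 were not analysed here. All 35 measured members were above the floor on every array (64.3% of all genes), 29 were in the top 25% and 18 in the top 10%, and their median rank percentile was 91.4. Spi1 was at 11.74, 11.81, 11.85 and 11.79, and Irf8 at 11.20, 11.25, 11.23 and 11.30. The highest of the list were Creg1 (12.65 ± 0.014), a secreted glycoprotein of the endolysosome that is counted among regulators of differentiation, Id2 (12.53 ± 0.020), a helix-loop-helix inhibitor, Atf3 (12.14 ± 0.065), a stress-response factor, and Nfe2l2 (11.91 ± 0.030), the regulator of antioxidant genes. Zeb2 (11.80 ± 0.030), Runx1 (11.22 ± 0.046), Lmo2 (11.15 ± 0.040), Maf (11.09 ± 0.11), Stat6 (11.00 ± 0.042), Irf5 (10.80 ± 0.024), Bhlhe41 (10.72 ± 0.049), Fli1 (10.72 ± 0.044) and Stat3 (10.54 ± 0.027) also lay in the top 10%. Of the MiT/TFE family, Mitf was at 10.96 ± 0.077, Tfe3 at 10.65 ± 0.034, Tfec at 9.60 ± 0.075 and Tfeb at 9.22 ± 0.030. The lipid-sensing nuclear receptors were Pparg at 10.36 ± 0.067, Rxra at 9.60 ± 0.092, Nr1h3 at 9.42 ± 0.12 and Ppard at 9.19 ± 0.041. Cebpa was at 9.72 ± 0.12, Cebpb at 8.61 ± 0.089 and Cebpd at 5.88 ± 0.13. Bach1 (9.99 ± 0.070), Elf4 (9.84 ± 0.014), Bhlhe40 (9.65 ± 0.080), Elf1 (9.40 ± 0.072), Ikzf1 (9.31 ± 0.045) and Ets2 (8.34 ± 0.042) lay in the upper part of the range. The 4 lowest of the list, near the median gene, were Klf2 (6.56 ± 0.27), Klf4 (6.51 ± 0.11), Cebpd and Batf3 (5.47 ± 0.10), a factor of conventional dendritic cells.

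Factors that mark macrophages of particular tissues, listed together with the enzyme gene Car4, were more mixed. Of 12 genes measured, 10 (83.3%) were above the floor, against 64.3% of all genes. In the top 25% were 3 (25%), close to the 24.1% of all genes. Those 3 were Mef2a (12.29 ± 0.026), Mef2c (10.26 ± 0.056) and Id3 (9.18 ± 0.27), an inhibitor linked to Kupffer cells. Gata6, the factor of peritoneal macrophages, was at 4.34, 4.60, 4.04 and 4.16, at the floor. Sall1, the factor of microglia, was at 4.32 ± 0.095, and Spic, the factor of splenic red pulp macrophages, at 5.30 ± 0.10. Factors of other lineages were lower still. Of 21 measured, 7 were above the floor, 0 were in the top 25%, and their median rank percentile was 32.1. The highest were Gata2 at 5.67 ± 0.17, Cebpe, a granulocyte factor, at 5.29 ± 0.17, and Hnf4a, a liver factor, at 4.79 ± 0.11. Pax5 and Ebf1 of B cells (3.81 ± 0.19 and 3.41 ± 0.055), Gata1 of red cells and platelets (3.45 ± 0.14) and Neurod1 of neurons (3.18 ± 0.37) were below the floor on every array.

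**Figure D2:**
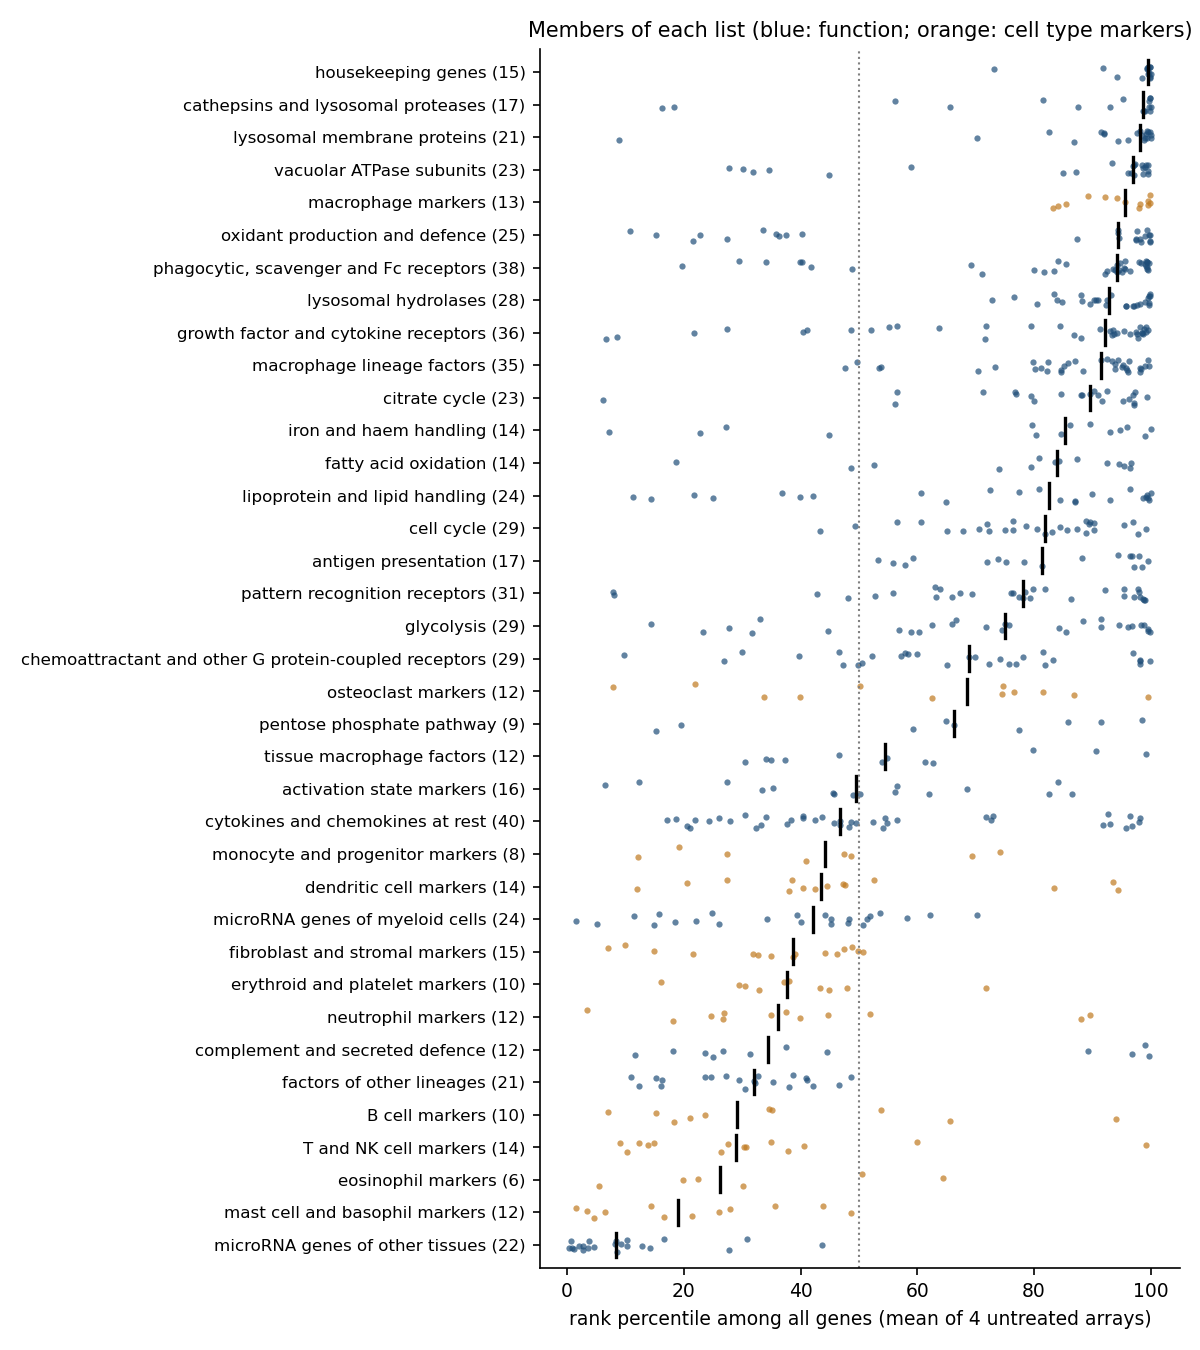
Rank percentile (horizontal axis, 0 to 100 among all 18755 genes by mean of the 4 untreated arrays) of each measured member of 37 gene lists, with the number of members in brackets; blue dots are function lists, orange dots are cell type markers, the black bar is the list's median and the dotted line the median gene. Lysosomal lists, housekeeping genes and macrophage markers have medians above 90, and markers of other blood cells and microRNA genes of other tissues have medians below 50.

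The share of receptor genes in the top 25% differed between the 4 receptor lists, from 34.5% of the chemoattractant and other G protein-coupled receptors to 76.3% of the phagocytic, scavenger and Fc receptors, against 24.1% of all genes. Of 36 measured growth factor and cytokine receptors, 32 were above the floor and 23 were in the top 25%, with a median rank percentile of 92.2. After Csf1r came Ifngr2, a chain of the interferon gamma receptor, at 12.30 ± 0.039, Il7r, a chain of the receptor for interleukin 7, at 12.26 ± 0.011, and Csf2rb2, a beta chain of the interleukin 3 receptor, at 12.12 ± 0.032. Receptor chains for GM-CSF (Csf2ra, 12.01 ± 0.063), TNF (Tnfrsf1b, 11.97 ± 0.057), interleukin 10 (Il10rb, 11.96 ± 0.061), TGF-beta (Tgfbr1, 11.70 ± 0.013) and type I interferon (Ifnar2, 11.61 ± 0.011) were in the top 10% as well. Csf2rb2 and Csf2rb are near-identical copies, so their signals may hold each other's transcript. The receptors of the list that lay below the floor on every array were Flt3 (3.97 ± 0.20), Il2ra (3.72 ± 0.055), Il13ra2 (3.04 ± 0.16) and Il18r1 (2.91 ± 0.082). Il7r is best known from lymphocytes, and it stood at 12.27, 12.25, 12.24 and 12.26. The T cell receptor component Cd3e was at 4.33, 4.73, 4.42 and 4.43, slightly above the floor on every array.

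Receptors for engulfment followed the same pattern. Of 38 phagocytic, scavenger and Fc receptor genes, 35 were above the floor and 29 were in the top 25%, with a median rank percentile of 94.2. Fcer1g, the signalling chain shared by Fc receptors, was at 12.62, 12.59, 12.57 and 12.61. Trem2, a lipid receptor, was at 12.48, 12.57, 12.50 and 12.56, and its signalling partner Tyrobp at 12.40 ± 0.040. Lrp1, a receptor for lipoproteins and dying cells, was at 12.41 ± 0.064, and the bridging protein Mfge8 at 12.40 ± 0.045. Some receptors of the list did not share this place, although Stab1 (10.86 ± 0.083), Mertk and Mrc1 were in the top 25%. Siglec1 was lower, at 8.24 ± 0.17 (69.1st percentile). Timd4, a receptor for phosphatidylserine, was at 3.87, 3.92, 3.48 and 3.24, and Cd163, the haemoglobin scavenger receptor, at 4.20, 4.03, 3.98 and 4.08, both at or below the floor on every array. Marco, a scavenger receptor, was slightly above it at 4.92, 4.50, 4.51 and 4.52.

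Of 31 pattern recognition receptor genes, 29 were above the floor and 17 were in the top 25%. Cd180, a relative of Toll-like receptors, was at 12.14 ± 0.051, Tlr13, a sensor of bacterial ribosomal RNA, at 12.10 ± 0.039, Clec12a at 12.02 ± 0.032 and Tlr8 at 11.83 ± 0.054. The parts of the LPS receptor lay apart in rank: Ly96 (MD-2) was at the 98.0th percentile (11.76 ± 0.014), Cd14 at the 92.2nd and Tlr4 at the 78.5th (9.07 ± 0.019). Tlr5, the flagellin receptor, was at 4.84 ± 0.23. Tlr11 and Tlr12, sensors of a parasite protein, were both below the floor on every array (Tlr11 at 2.99 ± 0.023). Among 29 chemoattractant and other G protein-coupled receptor genes, 26 were above the floor and 10 in the top 25%. C3ar1 led with 12.94, 12.91, 12.92 and 12.88, before the nucleotide receptor P2ry6 (11.79 ± 0.062), the platelet-activating factor receptor Ptafr (11.78 ± 0.072) and Cxcr4 (11.77 ± 0.055). Receptors of other leukocytes ended the list: Cxcr2 of neutrophils was at 3.95 ± 0.043 and Cxcr5 of B cells at 3.11 ± 0.16, both below the floor.

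Most members of the 4 lysosomal lists ranked in the top 25%. Of 17 cathepsin and lysosomal protease genes, 15 were above the floor and 13 in the top 25%, with a median rank percentile of 98.7. All 28 hydrolases were above the floor, with 26 in the top 25%, and so were 20 of 21 membrane proteins, with 19 in the top 25%, and 20 of 23 vacuolar ATPase subunits, with 17 in the top 25%. Ctsd was at 13.31, 13.26, 13.31 and 13.31. Ctsz (12.87 ± 0.010), Ctss (12.84 ± 0.018), a protease of class II antigen processing, Ctsa (12.77 ± 0.033), Ctsl (12.71 ± 0.062), Lgmn (12.65 ± 0.036), the asparaginyl endopeptidase, and Ctsh (12.17 ± 0.038) followed. Tpp1 (12.09 ± 0.069), Scpep1 (12.06 ± 0.082), Ctsc (10.98 ± 0.073), which activates granule proteases, Napsa (10.60 ± 0.042), Ctso (9.89 ± 0.034) and Ctsk (9.33 ± 0.19), the collagen-degrading protease of osteoclasts, also lay in the top 25%. Ctsf was at 7.92 ± 0.078 and Ctse at 6.91 ± 0.28. The 2 members below the floor on every array belong to other leukocytes: Ctsg, a neutrophil granule protease, was at 3.63, 3.42, 3.58 and 3.58, and Ctsw, of cytotoxic lymphocytes, at 3.45 ± 0.11.

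No measured lysosomal hydrolase lay near the floor. Psap, Lyz2, the ganglioside activator Gm2a (12.65 ± 0.047) and the mannosidase Man2b1 (12.60 ± 0.027) were highest, and the lowest of the 28 were Acp5 (8.90 ± 0.092), the tartrate-resistant phosphatase, and Arsa (8.56 ± 0.063), arylsulfatase A. Lyz1 was at 9.45, 9.99, 9.68 and 9.38. It is a near-identical copy of Lyz2, so its signal is uncertain. Among membrane proteins Gpnmb, Laptm5, Cd68 and Lamp1 (12.48 ± 0.027) led. Lamp3, which marks mature dendritic cells, was below the floor at 3.06 ± 0.095.

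The vacuolar ATPase, the pump that acidifies the lysosome, is built from subunits that come in alternative forms. For subunit B, Atp6v1b2 was at 12.49, 12.59, 12.62 and 12.55, and Atp6v1b1, the form known from kidney and inner ear, at 4.26, 4.45, 3.81 and 3.87, across the floor. For subunit d, both Atp6v0d2 (12.49 ± 0.042), known from osteoclasts, and Atp6v0d1 (11.35 ± 0.096) were in the top 10%. For subunit a, Tcirg1 was at 12.18 ± 0.052, Atp6v0a1 at 12.04 ± 0.071 and Atp6v0a2 at 9.64 ± 0.056. Subunits G and E each had a broadly used form in the top 10%, Atp6v1g1 at 10.65 ± 0.071 and Atp6v1e1 at 11.22 ± 0.055. Their alternative forms were lower in the distribution, with Atp6v1g2 at 7.22 ± 0.075, Atp6v1g3 at 4.17 ± 0.24 and Atp6v1e2 at 3.99 ± 0.25. Atp6v1c1 was at 11.48 ± 0.039 and its alternative Atp6v1c2 at 4.30 ± 0.061, while Atp6v0e was at 11.94 ± 0.046 and Atp6v0e2 at 5.07 ± 0.19. The remaining subunits were Atp6ap1 (12.51 ± 0.059), Atp6v1a (12.28 ± 0.058), Atp6v0b (12.05 ± 0.041), Atp6ap2 (11.52 ± 0.046), Atp6v1d (11.45 ± 0.030), Atp6v1f (11.40 ± 0.046) and Atp6v1h (9.85 ± 0.061), all in the top 25%. In this list 1 form of each of the subunits B, C, E, G and e was in the top 10% and another was under the top 25%.

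**Figure D3:**
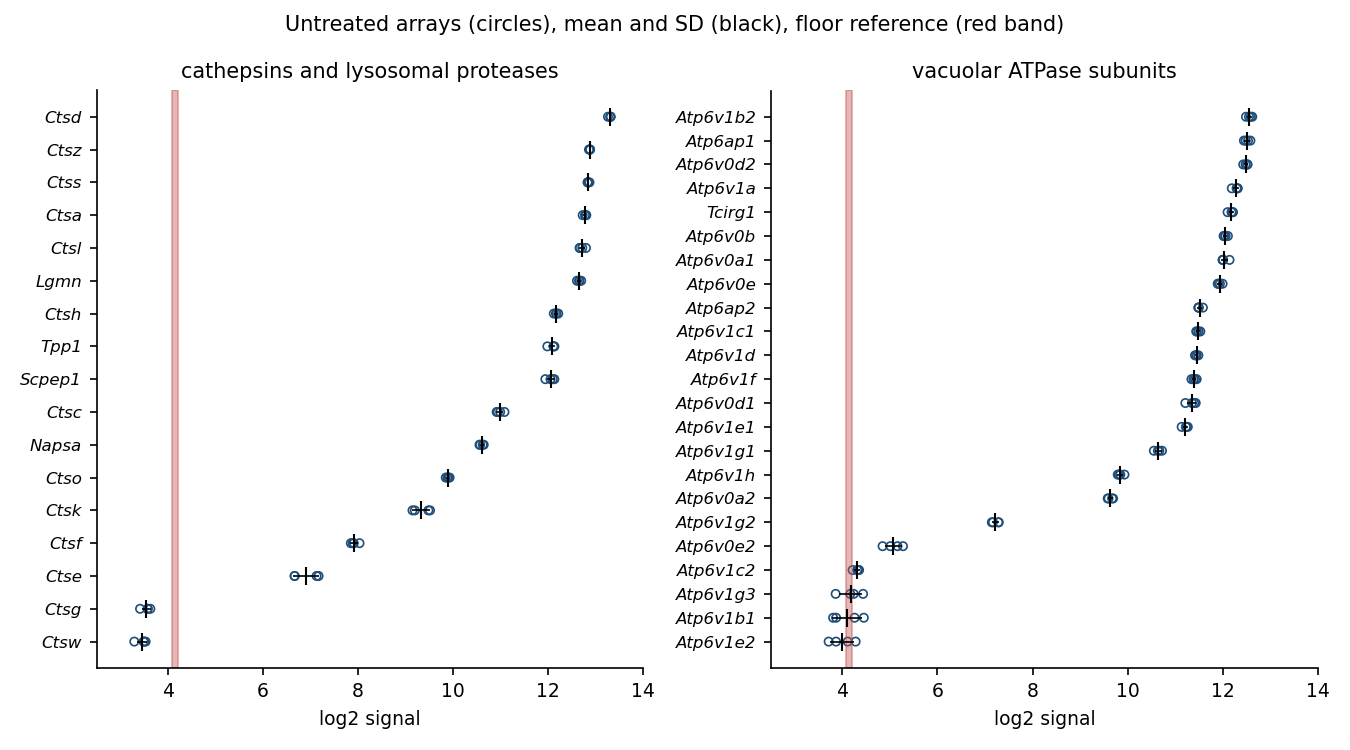
Log2 signal (horizontal axis) of the 17 cathepsin and lysosomal protease genes and the 23 vacuolar ATPase subunit genes (vertical axes), with each untreated array as a circle, the mean and SD in black and the floor (4.08 to 4.21) as a red band. Most genes lie between 9 and 13.3 with circles that nearly coincide, and Ctsg, Ctsw, Atp6v1b1, Atp6v1g3 and Atp6v1e2 lie at the red band or to its left.

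Promoters were read from a RefSeq table (build GRCm38.p6, 250 bases before to 50 after each start), in which 14695 of the genes were found by gene ID and 12177 had exactly 1 start. The E-box CACGTG, a palindrome that MiT/TFE factors and other helix-loop-helix factors can bind, was looked for on both strands. Promoters of 4 lysosomal genes with high signal are shown because they carry it within 150 bases of the start. Each is given as the 250 bases before the start, 5′ to 3′ on the strand of the gene, with E-boxes in capitals: Ctsd at chr7:142387828-142388077 (minus strand), Lamp1 at chr8:13158911-13159160 (plus strand), Atp6v1a at chr16:44139260-44139509 (minus strand) and Atp6v0b at chr4:117887330-117887579 (minus strand).
Ctsd: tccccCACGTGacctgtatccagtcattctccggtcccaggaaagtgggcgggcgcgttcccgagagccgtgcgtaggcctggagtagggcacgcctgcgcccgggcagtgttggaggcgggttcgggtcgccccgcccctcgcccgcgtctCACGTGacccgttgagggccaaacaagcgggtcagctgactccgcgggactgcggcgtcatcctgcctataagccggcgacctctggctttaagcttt
Lamp1: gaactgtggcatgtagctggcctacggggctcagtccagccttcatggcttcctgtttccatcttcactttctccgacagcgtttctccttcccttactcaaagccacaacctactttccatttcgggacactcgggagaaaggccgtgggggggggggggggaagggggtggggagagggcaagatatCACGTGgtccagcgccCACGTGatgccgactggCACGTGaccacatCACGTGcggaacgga
Atp6v1a: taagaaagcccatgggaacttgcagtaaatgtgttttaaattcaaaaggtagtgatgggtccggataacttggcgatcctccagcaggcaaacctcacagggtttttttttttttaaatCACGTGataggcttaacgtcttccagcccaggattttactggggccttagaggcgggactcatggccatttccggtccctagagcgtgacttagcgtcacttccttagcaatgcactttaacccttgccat
Atp6v0b: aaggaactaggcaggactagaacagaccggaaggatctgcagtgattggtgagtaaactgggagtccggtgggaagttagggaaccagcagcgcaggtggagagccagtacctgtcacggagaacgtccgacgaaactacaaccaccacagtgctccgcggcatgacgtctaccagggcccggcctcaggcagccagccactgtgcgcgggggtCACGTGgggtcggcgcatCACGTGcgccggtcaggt
Ctsd and Atp6v0b held 2 matches each, Lamp1 held 4 in its last 61 bases, and Atp6v1a held 1, at 131 bases before the start.

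Of 65 promoters of the lysosomal lists, 16 (24.6%) held an E-box. This compares with 8.29% of all 12177 promoters and with 11.5% of the 2933 promoters of other genes in the top 25%. With the first listed start of every gene the shares were 21.6%, 8.45% and 11.6%. The form preceded by T, TCACGTG, which contains the E-box, was in 13 of the 65 lysosomal promoters and in 4.62% of all. It was looked for after the E-box matches had been seen. The longer CLEAR palindrome, which also contains the E-box and is named from lysosomal promoters, was matched by its exact letters only. It was in 0 of 65 and in 0.501% of all. At so low a share, 0 of 65 does not set the lysosomal lists apart from all promoters. Lysosomal promoters held a median of 13 CpG dinucleotides per 300 bases, and the other genes of the top 25% a median of 23. The PU.1-type letters GAGGAAGT were in 4 of 48 promoters of macrophage factors, markers and phagocytic receptors (8.33%), namely Itgav, Pirb, Fcgr4 and Cd300lf, and in 2.79% of all. The share was 6.45% with the first listed start. It was 4.46% in the top 10% of genes and 7.69% in the lysosomal lists (5 of 65). A match is a description of these letters in this window and not a binding site.

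Across the whole profile promoter sequence differed with the level of the gene. The median number of CpG dinucleotides per 300 bases was 3 for genes at or below the floor, 7 for genes above it on some arrays, 19 for genes above it but under the top 25%, 23 for the rest of the top 25% and 22 for the top 10%. Median GC content ran from 47.3% at the floor to 62.0% in the top 10%. The letters TATAAA, those of the TATA box, a core promoter element, were counted anywhere in the 300 bases, on both strands. They were in 24.3% of promoters at or below the floor and in 16.3% of those above it on some arrays. The share was 7.98% for genes above the floor but under the top 25%, 5.60% for the rest of the top 25% and 8.06% for the top 10%. A stretch of only A and T is less frequent where GC content is higher. The part of GC content in these shares was not tested. Without the olfactory and vomeronasal receptor genes, the promoters at or below the floor held a median of 5 CpG dinucleotides and 18.6% held TATAAA.

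**Figure D4:**
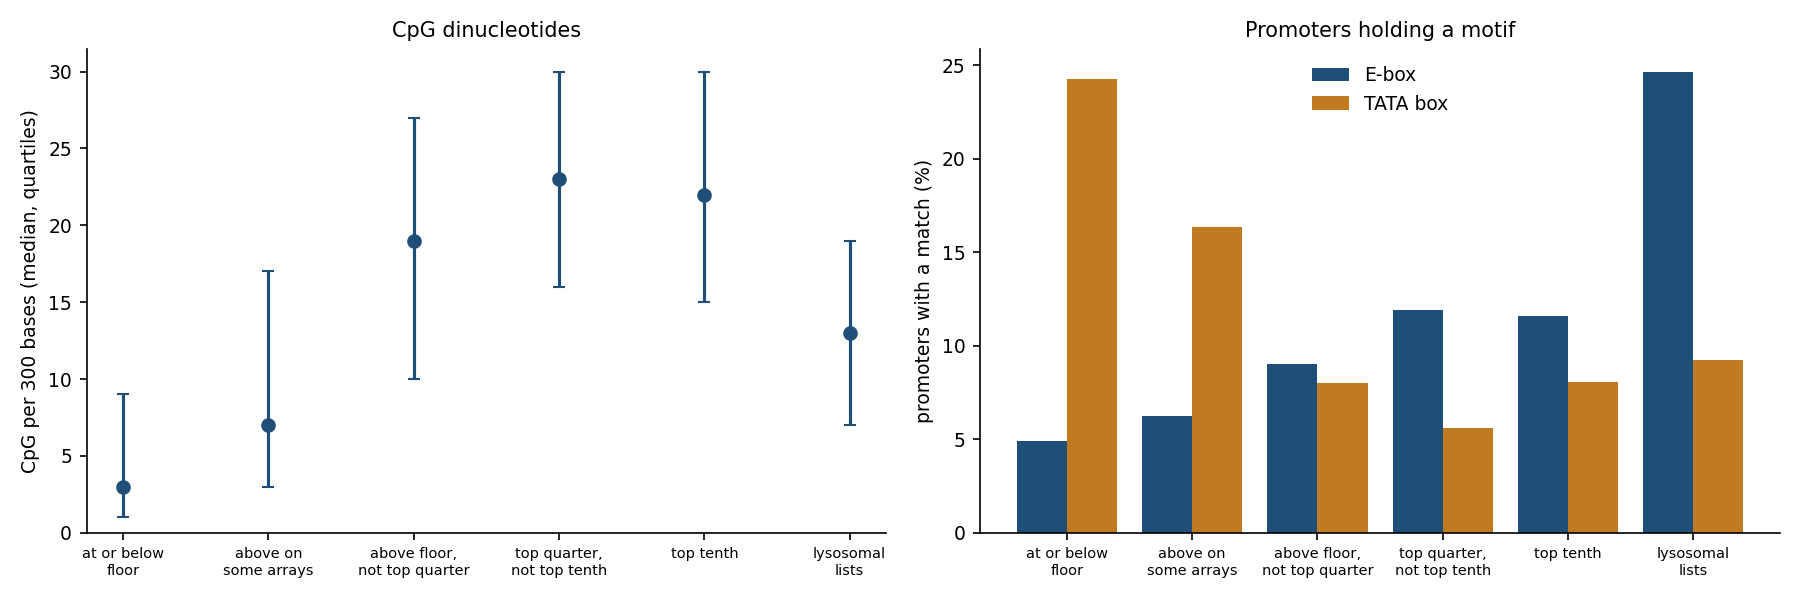
Left, CpG dinucleotides per 300-base promoter (median with quartiles); right, percent of promoters holding the letters of an E-box (blue) or a TATA box (orange) at any position, for 5 bands of level and for the lysosomal lists. The median CpG number is 3 at the floor, 23 in the fourth band and 22 in the top 10%, TATA box shares fall from 24.3% at the floor to 5.60% in the fourth band and are 8.06% in the top 10%, and the lysosomal lists show 24.6% with an E-box at a median of 13 CpG.

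Energy metabolism genes were high, with a difference between some forms of the same enzyme. Of 29 glycolysis genes, 24 were above the floor and 13 in the top 25%. Gapdh was at 13.27 ± 0.026, Ldha at 12.59 ± 0.046, Aldoa at 12.58 ± 0.038, Pkm at 12.09 ± 0.067, Pgam1 at 11.86 ± 0.036, Pgk1 at 11.38 ± 0.028 and Tpi1 at 11.23 ± 0.087. The glucose transporters in the top 25% were Slc2a1 (10.85 ± 0.039) and Slc2a6 (9.99 ± 0.098), and Slc2a3 was at 7.38 ± 0.17. Of the hexokinases, Hk3 was at 10.38 ± 0.090, Hk1 at 9.68 ± 0.044 and Hk2 at 8.76 ± 0.076. Aldoc (10.36 ± 0.044), the phosphofructokinases Pfkp (9.57 ± 0.067), Pfkl (8.72 ± 0.085) and Pfkm (8.47 ± 0.075), and the lactate transporters Slc16a3 (8.83 ± 0.15) and Slc16a1 (7.61 ± 0.076) lay in the middle and upper range. Eno2 (8.01 ± 0.11), Ldhb (7.96 ± 0.11), Eno3 (7.23 ± 0.15), Gapdhs (6.98 ± 0.042) and Pgam2 (5.05 ± 0.22), forms known from neurons, heart, muscle or sperm, lay under the top 25%. The division was not general. Aldoc, known from brain, was at the 91.5th percentile, and Pfkm, known from muscle, at the 71.7th beside Pfkl at the 74.6th. Eno1 was not among the measured members, so Eno2 and Eno3 cannot be compared with it. The 5 members not above the floor on every array were the sperm forms Pgk2 (4.23 ± 0.22) and Ldhc (3.37 ± 0.053), the liver transporter Slc2a2 (4.17 ± 0.27), the insulin-sensitive transporter Slc2a4 (3.99 ± 0.20) and the liver kinase Pklr (3.79 ± 0.13).

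Of 23 citrate cycle genes, 22 were above the floor and 19 in the top 25%, led by Idh1 at 12.36, 12.37, 12.53 and 12.39, a cytosolic form, and by citrate synthase Cs at 11.50 ± 0.027. Idh3g (11.47 ± 0.015) and Sdha (11.46 ± 0.079) followed. Acod1, which makes itaconate in activated macrophages, was at 6.89, 7.18, 7.21 and 6.45, at the 56.5th percentile. Pdha2, a testis form, was the only member below the floor (2.86 ± 0.19). Of 14 fatty acid oxidation genes, 13 were above the floor and 10 in the top 25%. Hadh was at 11.35 ± 0.048 and Cpt1a, the gate of mitochondrial import, at 11.31 ± 0.056, while the coactivator Ppargc1a was at 3.57 ± 0.14. Of 9 pentose phosphate genes, 7 were above the floor and 4 in the top 25%, with Pgd at 11.99 ± 0.040 and Taldo1 at 10.36 ± 0.063.

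Lipid and iron genes showed the same division. Of 24 lipoprotein and lipid genes, 19 were above the floor and 14 in the top 25%. Apoe led, before the lipid droplet protein Plin2 (12.59 ± 0.053), the lipase Lpl (12.54 ± 0.084) and Lrp1, while genes of liver and gut such as Abcg5 (3.37 ± 0.088) and Fabp1 (3.20 ± 0.17) were below the floor. Of 14 iron and haem genes, 11 were above the floor and 10 in the top 25%. Fth1 was at 13.39, 13.39, 13.43 and 13.40 and biliverdin reductase Blvrb at 12.17 ± 0.040, and Hmox1, which breaks down haem, was at 10.89 ± 0.041. Hamp, the liver hormone hepcidin, was below the floor on every array at 2.67, 2.39, 3.02 and 3.68.

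Oxidant genes split by enzyme. Of 25 measured, 17 (68%) were above the floor, close to the 64.3% of all genes. In the top 25% were 15 (60%, against 24.1% of all genes), 14 of them in the top 10%. Cybb, the catalytic subunit of the phagocyte oxidase, was at 12.76, 12.88, 12.91 and 12.81, and Cyba at 12.85, 12.89, 12.92 and 12.92. Nos2, the inducible nitric oxide synthase, was at 4.08, 3.88, 3.87 and 4.05, below the floor on every array. Nox3 (3.41 ± 0.25) and Nox4 (3.16 ± 0.033), oxidases of other tissues, were also below it. The antioxidant genes Txn1 (13.07 ± 0.032) and Sod1 (12.66 ± 0.022) lay in the top 10%.

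Of 17 antigen presentation genes, all were above the floor and 10 in the top 25%. B2m was at 12.58 ± 0.053, the invariant chain Cd74 at 11.97 ± 0.091, Ifi30 at 11.76 ± 0.032 and H2-Ab1 at 11.41, 11.42, 11.65 and 11.46. The lowest members were Cd1d1 (6.86 ± 0.073) and the costimulatory ligand Cd86 (6.46 ± 0.12). Among 12 complement and secreted defence genes, 6 (50%) were above the floor, against 64.3% of all genes. C1qb (12.59 ± 0.059), C1qc (12.14 ± 0.045), properdin (Cfp, 11.40 ± 0.10) and C1qa were in the top 25%, and Camp (3.55 ± 0.11) and C9 (3.22 ± 0.16) were below the floor.

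Cytokine genes were spread over the range. Of 40 measured, 27 (67.5%) were above the floor, close to the 64.3% of all genes. In the top 25% were 8 (20%), against 24.1% of all genes. All 8 were also in the top 10%. They were led by Igf1, a growth factor, at 11.65, 11.86, 11.82 and 11.81, Tgfb1 at 11.71, 11.74, 11.75 and 11.76, the inflammatory chemokine Ccl3 at 11.32, 11.35, 11.37 and 11.52 and Ccl9 at 11.32 ± 0.081. The others of the 8 were Cxcl16 (11.10 ± 0.13), Mif (10.61 ± 0.078), Ccl6 (10.56 ± 0.22) and Pdgfb (10.43 ± 0.13). Several cytokines best known from activated cells were under the top 25%. Tnf was at 8.59, 8.46, 8.73 and 8.44 (72.7th percentile), Il1b at 4.99, 5.20, 5.79 and 5.36, and Il10 at 4.55, 4.29, 4.88 and 4.87, all above the floor. The 6 members below the floor on every array were Il6, at 3.40, 3.71, 3.68 and 3.51, Ccl8 (3.50 ± 0.21), Cxcl9 (3.67 ± 0.13), Ccl24 (3.69 ± 0.22), Lif (3.73 ± 0.15) and Ifnb1 (3.83 ± 0.22). Markers of activation states had 11 of 16 members above the floor (68.8%), 3 in the top 25% (18.8%) and 0 in the top 10%. The shares of all genes were 64.3%, 24.1% and 9.44%. Cd274 (PD-L1) was at 9.78 ± 0.092, Mrc1 at 9.56 ± 0.11, Egr2 at 9.43 ± 0.075 and Slc7a11 at 8.19 ± 0.11, while Chil3 (3.26 ± 0.64) and Retnla (2.89 ± 0.088), known from alternative activation, were below the floor.

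Markers of other cells that bone marrow could hold differed between lists in how many were above the floor, against 64.3% of all genes. The share was higher than that in the dendritic cell list, with 11 of 14 (78.6%). It was close to it in the monocyte and progenitor list, with 5 of 8 (62.5%), and in the erythroid and platelet list, with 6 of 10 (60%). It was lower in the fibroblast and stromal list (8 of 15, 53.3%), the neutrophil list (6 of 12, 50%), the eosinophil list (2 of 6, 33.3%), the B cell list (3 of 10, 30%), the T and NK cell list (4 of 14, 28.6%) and the mast cell and basophil list (2 of 12, 16.7%). These comparisons were made with the main floor only. Of the 14 dendritic cell markers, 6 were above a floor at the 99th percentile of the olfactory and vomeronasal receptor genes. With a floor from keratin-associated and defensin genes, 5 were above it. The place of that list against all genes therefore depends on the floor. The median rank percentile of each of these lists was under 50, from 19.1 for mast cells and basophils to 44.2 for monocytes and progenitors. The members in the top 25% numbered 2 in the neutrophil list, 3 in the dendritic cell list, 1 each in the B cell and T and NK cell lists, and 0 in the other lists named. In the neutrophil list these were Mmp8, a collagenase, at 10.04, 10.19, 10.14 and 10.14, and Csf3r, the G-CSF receptor, at 9.80, 9.94, 10.00 and 10.02. The other neutrophil markers above the floor on every array were S100a8 (6.26 ± 0.21), at the 51.9th percentile, and the granule genes Ngp (5.05 ± 0.26), Elane (4.62 ± 0.23) and Mpo (4.46 ± 0.16). S100a9 (4.32 ± 0.10) and Ltf (3.95 ± 0.18) were above it on some arrays, and Cxcr2, Prtn3 (3.85 ± 0.11), Camp (3.55 ± 0.11) and Retnlg (2.65 ± 0.20) were below it on every array. In the dendritic cell list they were H2-Eb1 (10.81 ± 0.12), Itgax (10.67 ± 0.10) and Bst2 (9.50 ± 0.060), which macrophages also use. Other dendritic cell markers above the floor on every array included Cd209a (6.37 ± 0.075), Batf3 (5.47 ± 0.10), Ccr7 (5.42 ± 0.20) and Zbtb46 (4.49 ± 0.19). Flt3 (3.97 ± 0.20), Xcr1 (3.67 ± 0.26) and Clec9a (3.24 ± 0.41) were below it on every array. In the B cell list it was the adaptor Blnk (10.77 ± 0.039). Cd22 (7.92 ± 0.18) and Cd79b (6.56 ± 0.057) were the other B cell markers above the floor on every array. Vpreb3 was at 3.55 ± 0.24 and Ms4a1 at 2.93 ± 0.16. In the T and NK cell list it was Il7r. The others of that list above the floor on every array were Cd4, at 7.11, 7.33, 7.49 and 7.40, Klrb1c (4.67 ± 0.23) and Cd3e (4.48 ± 0.17). Ncr1, the NK cell receptor, was below it at 3.07 ± 0.22.

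The other lists had few members of middle rank. Ccr2, the chemokine receptor of monocytes, was at 8.56, 8.61, 8.82 and 8.71, and Cd34 of progenitors at 8.70, 7.84, 8.02 and 8.44. Siglecf of eosinophils and alveolar macrophages was at 7.82 ± 0.14, and the platelet chemokine Pf4 at 8.48 ± 0.26. The stromal markers peaked at Acta2 (6.06 ± 0.14), and Dcn, a matrix proteoglycan, was at 6.36, 4.85, 5.92 and 5.60. Mast cell proteases Mcpt4 and Mcpt2 were at 2.43 ± 0.11 and 2.75 ± 0.18. Of 12 osteoclast markers, 9 (75%) were above the floor and 3 (25%) in the top 25%, against 64.3% and 24.1% of all genes. Those 3 were Atp6v0d2, Tnfrsf11a (RANK, 9.83 ± 0.066) and Ctsk. Calcr, the calcitonin receptor, was at 3.73 ± 0.25 and Oscar at 2.98 ± 0.22. The part of cells other than macrophages in these levels was not tested.

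Among the 37 lists, the cell cycle list had the largest median SD over the arrays (0.206, against 0.107 for all genes), although none of its members was among the 12 most variable genes. All 29 measured cell cycle genes were above the floor and 18 were in the top 25%, led by Pcna (12.29 ± 0.12), the sliding clamp of replication, Cdk4 (11.70 ± 0.052), the inhibitor Cdkn1a (11.43 ± 0.026) and Ccnb2 (11.00 ± 0.24). Untreated replicate 1 was the highest array for 24 of the 29, whereas it was the highest for 30.9% of all genes. The genes deviated from their own mean by 0.244 on average in replicate 1, and by -0.107, -0.0866 and -0.0505 in replicates 2, 3 and 4. Mki67, a proliferation marker, was at 10.34, 9.85, 10.00 and 9.98, Ccnb2 at 11.32, 10.90, 10.76 and 11.04, and Rrm2, a ribonucleotide reductase subunit, at 10.19, 9.39, 9.55 and 9.67. Over all genes the average deviation of replicate 1 was 0.0229.

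Only 39 genes had an SD over 0.5, and 0 of them were in the top 25%. The most variable gene above the floor was the Y-linked demethylase Kdm5d, at 6.55, 7.73, 7.07 and 4.60. Uty, also Y-linked, was at 6.76, 8.10, 7.42 and 3.49, so replicate 4 was below the floor. Xist, the RNA of the inactive X chromosome, was at 11.60, 10.69, 11.44 and 11.72, in the top 10% on every array. Next in spread was Marcksl1, an actin-binding protein, at 6.30, 5.85, 7.61 and 7.83. Kcnj14, Dcn, Prp2, Sdc2, Olfr767, Prkcz, Ifi205, Btnl5-ps, Rab4a and Hamp2 completed the 12 most variable genes, with SDs between 0.493 and 0.656. Among these 12, replicate 2 was the lowest array in Marcksl1, Kcnj14, Dcn, Sdc2, Ifi205 and Rab4a and the highest in Kdm5d, Prp2 and Prkcz.

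**Figure D5:**
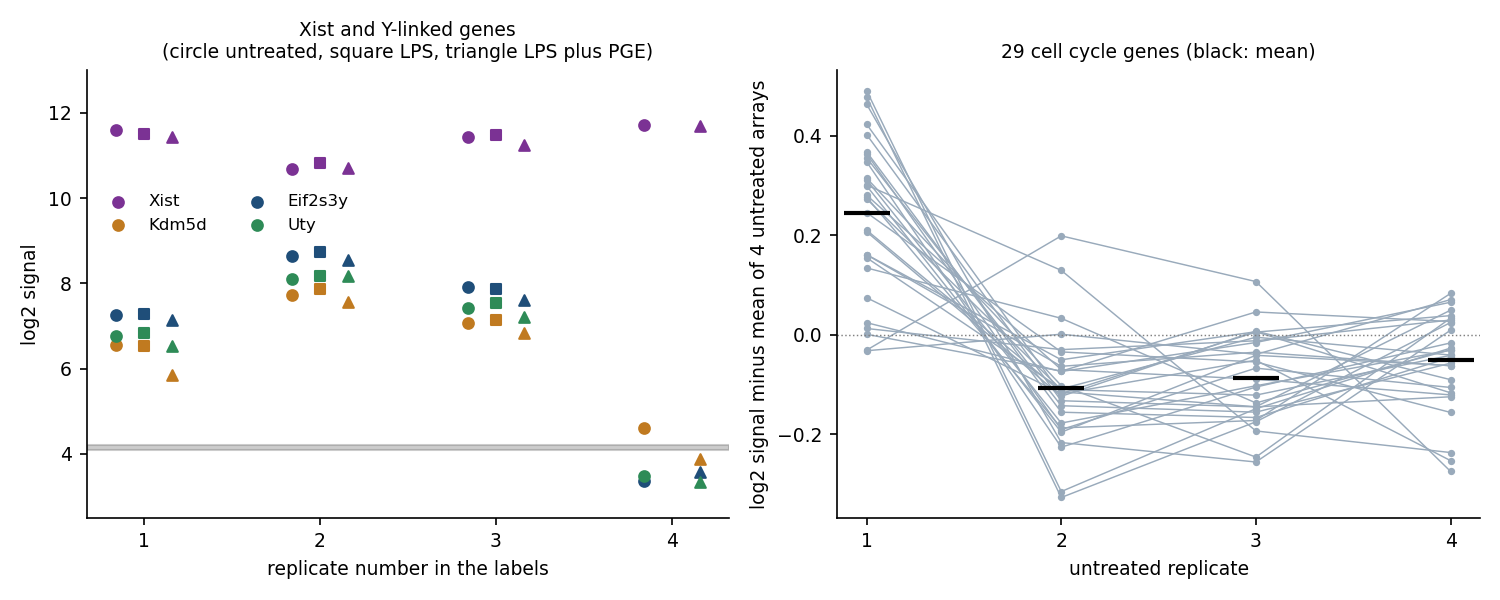
Left, log2 signal of Xist and 3 Y-linked genes by replicate number in the labels, for untreated (circle), LPS (square) and LPS plus PGE (triangle) arrays, with the floor as a grey band; right, log2 signal of each of 29 cell cycle genes minus its mean over the 4 untreated arrays, with a line joining the values of a gene and a black bar at their mean. Y-linked genes fall to near the floor in replicate 4, and cell cycle genes average 0.244 above their mean in replicate 1.

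MicroRNA genes were measured through their loci, so the signal may come from the precursor or host transcript and does not say which arm is made. Mature sequences from RefSeq (GRCm38.p6) are given for the myeloid loci with the highest signal, grouped by shared seed (bases 2 to 8, in capitals), since microRNAs with the same seed have overlapping target sites.
miR-15a-5p: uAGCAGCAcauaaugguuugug
miR-16-5p: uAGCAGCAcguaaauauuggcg
miR-221-3p: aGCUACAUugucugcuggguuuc
miR-222-3p: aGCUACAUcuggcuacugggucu
miR-142a-3p: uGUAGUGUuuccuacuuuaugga
miR-27a-3p: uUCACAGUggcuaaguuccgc
miR-23a-3p: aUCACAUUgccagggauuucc
miR-24-3p: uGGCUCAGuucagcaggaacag
miR-342-3p: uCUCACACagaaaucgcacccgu
The pair miR-15a-5p and miR-16-5p shares its seed, and so does the pair miR-221-3p and miR-222-3p.

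Of 24 microRNA genes known from myeloid cells, 13 (54.2%) were above the floor on every array, against 64.3% of all genes, and 0 were in the top 25%. Mir15a was at 8.15, 8.40, 8.52 and 8.24, and Mir16-1, its neighbour in the genome, at 5.44, 5.21, 5.79 and 5.79. Mir142, a locus known from blood cells, was at 7.50, 7.64, 7.65 and 7.49. Mir27a (7.15 ± 0.10), Mir24-2 (6.25 ± 0.11) and Mir23a (6.16 ± 0.042), which form 1 cluster, lay within the middle of the distribution, as did Mir342 (6.52 ± 0.23) and the clustered Mir221 (6.05 ± 0.059) and Mir222 (5.61 ± 0.27). Mir155, known for its induction by inflammatory signals, was at 4.12, 4.84, 4.75 and 3.46, above the floor on 2 arrays. Mir146 (2.80 ± 0.067) and Mir29b-1 (2.44 ± 0.17) were below it. Of 22 microRNA genes of other tissues, 1 was above the floor on every array, Mir375 of the pancreas at 4.71, 5.49, 4.63 and 4.91, and their median rank percentile was 8.30.

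Whole gene families lay toward opposite ends of the range. Of 73 cytosolic ribosomal protein genes, 70 were above the floor and 60 in the top 10%. Of 38 proteasome genes 37 were above it, with the thymus subunit Psmb11 below (3.87), and all 34 genes of mitochondrial complex I were above it. All 6 Arp2/3 complex genes, which nucleate actin branches, were above the floor, with Arpc1b at 13.09. Of 58 Rab GTPases, regulators of vesicle traffic, 48 were above it, led by Rab7 of late endosomes at 12.24. At the low end, 20 of 36 Hox genes, 7 of 19 Wnt genes, 47 of 85 potassium channel genes, 24 of 47 keratin genes, 28 of 41 defensin genes and 30 of 43 Cyp2 genes were at or below the floor on every array, against 27.7% of all genes. No Hox, Wnt, keratin, defensin or Cyp2 gene was in the top 25%. Among potassium channels the exceptions included Kcnn4, a calcium-activated channel, at 11.60, 11.51, 11.49 and 11.64, and Kcnk6 at 10.84. The highest Hox gene was Hoxb4 at 5.89, 6.11, 6.39 and 6.17.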

How the data were processed

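The deposited values are log2 signals that the authors made from the arrays with RMA, per the submitters' processing notes. RMA subtracts background, equalizes the arrays and summarises the probes of a set. Other tools in the notes, with no role stated, are Partek, R 2.13.1 and Affymetrix Power Tools, and the log base was inferred from RMA and the range of the values (1.20 to 13.81). No source used here gives the genome build of the probe sets, and raw array files were not used. Normalization by the authors ran before deposit, so levels are relative to the arrays as a set and a shift of all genes together cannot be seen.

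Of 35309 probe sets, 21143 carried 1 gene symbol, 1870 several and 12296 none. For 1379 genes with several probe sets, the highest by mean over all 11 arrays was used, which left 18755 genes. Symbols were checked by gene ID against RefSeq for 21110 probe sets, and 0 changed. The authors had removed 1 array of the LPS group for quality.

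Means, SDs, ranks and counts were computed with Python 3.11.15, pandas 2.3.3 and numpy 2.4.6, and figures with matplotlib 3.10.9. There was no test between groups, because the profile has a single group, and Dixon's criterion was used only to single out arrays. "Above the floor", "top 25%" and "top 10%" mean on each of the 4 untreated arrays. The counting steps were tested on simulated data. Of 37 lists (26 of function, 11 of cell types), 684 of 779 symbols were among the genes, and the others were not analysed here. The named genes are the 20 highest and the 12 with the largest SD above the floor (predicted and small RNA genes left out of both), the 4 highest and 2 lowest members of each list, and all members of the lineage factor, macrophage marker, cathepsin, vacuolar ATPase and glycolysis lists. Other genes were named after their values were seen. Members, lists and rules were chosen with earlier results of these data known.

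Alternatives were another floor (99th or 90th percentile, or 87 keratin-associated and defensin genes), another probe set or the mean of probe sets, quantile normalization, genes above the floor only, and each array left out in turn. The first listed promoter start, and the SD without Xist and Y-linked genes, were added after seeing the data.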

Additional observations from a re-analysis of the deposited data

Results flagged for a closer look

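In groups of 4 arrays, a gene was singled out where its highest or lowest array lay apart from the other 3 by more than Dixon's 95% critical value (0.829 of the range). Chance flags about 1 in 20 groups. Of 316 named genes 15 met this, and of 37 list medians 1. In most of them the gap is small in log2 units because the other arrays nearly coincide.

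Untreated replicate 1 was lowest in Apoe (13.29, the others 13.34 to 13.35), Atf3 (12.04, the others 12.16 to 12.18) and Tpp1 (11.98, the others 12.11 to 12.13), and highest in Atp6ap2 (11.58, the others 11.49). It was also lowest in the median of the lysosomal hydrolases (10.55, the others 10.61 to 10.62). Replicate 2 was lowest in Ctsd (13.26), Eef2 (12.85) and Tfec (9.49, the others 9.63 to 9.64), and highest in Oscar (3.31), which lies below the floor. Replicate 3 was lowest in Hadh (11.28), Tpi1 (11.10, the others 11.27 to 11.29) and Mir203 (2.04), and highest in Atp6v0a1 (12.14) and in Tktl2 (3.60). Replicate 4 was lowest in Cs (11.46) and highest in Mir29b-1 (2.69). Mir203, Mir29b-1, Oscar and Tktl2 lie under the floor. The cause of these gaps was not tested.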

How the results depend on the processing

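Of 704 recomputed counts and summary values, 673 stayed within 1.5 times the main count or within the spread between arrays, and 31 moved. The number of genes at or below the floor became 8186 with a floor from keratin-associated and defensin genes. The median SD was 0.0960 to 0.102 when each array was left out in turn, and 0.0856 over genes above the floor. The lowest correlation was 0.9968 to 0.9970 when each array was left out, and 0.996 over genes above the floor. The counts of list members above the floor that moved belonged to lists near the floor. With the 99th percentile they were 2 factors of other lineages, 0 microRNA genes of other tissues, 3 neutrophil, 6 dendritic cell, 2 T and NK cell and 3 erythroid and platelet markers. With the 90th percentile they were 11 factors of other lineages, 2 microRNA genes of other tissues, and 4 mast cell and basophil, 8 T and NK cell and 5 B cell markers. With keratin-associated and defensin genes they were 1 factor of other lineages, 7 microRNA genes of myeloid cells, 0 microRNA genes of other tissues, and 3 neutrophil, 3 monocyte and progenitor, 5 dendritic cell, 2 T and NK cell, 1 mast cell and basophil, 1 erythroid and platelet and 2 stromal markers. These alternatives move the floor itself, so the 64.3% of all genes above the main floor does not apply to them. The number of all genes above the floor changed too, but stayed within 1.5 times the main count. With the mean of all probe sets of a gene, osteoclast markers in the top 25% numbered 5 and the median list percentile was 70.4. Of 261 other values, list medians and promoter shares, 238 stayed within their spread or interval, and no list median moved by more than 2.05 percentile points. Depth cannot be given for arrays; their number, and the nearness of a signal to the floor, limit the precision. No paired analysis was possible because the profile has a single group and its results come from no test between groups.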

Other observations

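Signal of the Y-linked genes and of Xist followed the replicate number of the labels in all 3 groups of the series. Eif2s3y was at 7.25, 7.28 and 7.15 in replicate 1 (untreated, LPS, LPS plus PGE), at 8.64, 8.73 and 8.54 in replicate 2, at 7.92, 7.87 and 7.60 in replicate 3, and at 3.35 (untreated) and 3.59 (LPS plus PGE) in replicate 4. Xist was lowest in replicate 2, at 10.69, 10.82 and 10.71, and highest in replicate 4, at 11.72 and 11.68. Thus in replicates 1 to 3 signal of Xist and of Y-linked genes was present on the same array. The labels do not say whether arrays with the same number share a source. These genes were picked after their values were seen.

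Some olfactory receptor genes, part of the set that defined the floor, were far above it. Olfr111 was at 9.61, 9.37, 9.81 and 9.69 (84.8th percentile), Olfr110 at 7.59, 7.58, 7.82 and 7.87, and Olfr920 at 6.70, 6.82, 6.97 and 6.90. Olfr110 and Olfr111 are close relatives, so their signals may overlap. In all, 33 of the 1126 reference genes were above their own 95th percentile on every array. Of 14166 probe sets with several symbols or none, 7351 were above the floor on every array and are unnamed here.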
